A study of Pimephales promelas with 26 samples.

Results

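The pooled 3.38 and 10.2 µg/L libraries were the 10 libraries, of 26 in all, made from fathead minnow (Pimephales promelas) larvae kept at the 2 middle measured concentrations of fluoxetine, 5 libraries at each, and they were set against the 5 libraries of larvae kept in water alone. Larvae were exposed through the water from 6 h after fertilization until 7 days of age, with daily renewal of at least part of the solution, and each library came from 20 whole larvae pooled. The remaining 11 libraries came from larvae at 0.19 (n = 3), 0.74 (n = 5) and 47.2 µg/L (n = 3), of the same age. By its title, the series sets transcriptomic points of departure (the lowest exposures that shift gene expression) beside adverse effects on the animal. The pool was proposed after earlier results had shown few or no differences at either concentration alone, so the values against water describe these libraries and are no independent test of that choice. Whole larvae were sequenced, so fewer cells of a type and less RNA per cell cannot be told apart. Whether the water control held a solvent is not given in the sources used here.

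Fluoxetine is an antidepressant that blocks the serotonin transporter, the membrane protein that takes released serotonin back into neurons and closes its signal. Serotonin is made in neurons by tryptophan hydroxylase and acts on several receptor families, and in fish as in mammals it bears on behaviour, feeding and the stress axis. Fluoxetine is also a cationic amphiphilic drug, a class known to collect in lysosomes and to disturb phospholipid breakdown there, and it is cleared largely by cytochrome P450 enzymes of the liver. Serotonin signalling, the stress axis, biotransformation and the lysosome were therefore among the gene groups examined.

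Total estimated counts in the 15 libraries ranged from 13644872 to 20552654, so that a floor of 3 counts was worth 0.146 to 0.22 CPM (counts-per-million). No pair of replicates, of 30, matched within sampling noise (lowest chi-square for each degree of freedom, 15.02). Among transcripts of at least 10 CPM, the median SD of log2 CPM between libraries was 0.20 in water, 0.22 at 3.38 µg/L and 0.22 at 10.2 µg/L. Of 66 marker genes for 15 tissues, 47 were found in the table and 45 had a median of at least 1 TPM (transcripts-per-million, scaled to length), with at least 1 for every tissue. Fragment length, read from the effective lengths that kallisto used, ran from 235.2 to 239.6 bp in water and from 222.3 to 246.5 bp in the pooled libraries, of which 5 (3.38 µg/L A and 10.2 µg/L A, B, D and E) lay below every water library. Its mean was 233.7 ± 7.81 bp (SD, n = 10) against 237.3 ± 1.58 bp (SD, n = 5; exact permutation test, two-sided, p = 0.331). The labels give no preparation or sequencing batch, so a batch could not be tested.

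No transcript was called different between the pooled libraries and water. Over 43837 transcripts, edgeR's quasi-likelihood test found 0 with a p below 0.05 after Benjamini-Hochberg adjustment (0% of those tested), and the smallest adjusted p was 0.859. At an unadjusted p below 0.05 there were 2523 (5.76%), 1084 of them higher (2.47%) and 1439 lower (3.28%) in the pooled libraries. In fits that left out 1 library this number ran from 1608 without water D to 3549 without 10.2 µg/L D. The median log2 fold change of all transcripts tested was -0.003. DESeq2 on the same counts called 75, which are described further on. In fits that left out 1 library the edgeR count was 0 to 1, and the single calls appeared without 3.38 µg/L C, 10.2 µg/L A or 10.2 µg/L D. Leaving out the 5 libraries of short fragments, a setting chosen after seeing the data, left only 1 library, C, at 10.2 µg/L. The pooled comparison then gave that 1 library as much weight as all the remaining 3.38 µg/L libraries together. Calls from that fit are not counted here, and its median log2 fold change was -0.03.

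The width of the intervals shows which sizes of difference were bounded. Each interval holds for 1 transcript and is not adjusted for the number tested, so a difference outside it need not be called. Among the 15259 transcripts with a mean of at least 10 CPM, the median half-width of the 95% interval of the log2 fold change was 0.26. For 14026 of them (91.9%) the whole interval lay within 2-fold of water, and for 11540 (75.6%) within 1.5-fold. Over all 43837 transcripts the median half-width was 0.61 and 24257 intervals (55.3%) lay within 2-fold. For the rest, a difference of more than 2-fold was not bounded at this depth and replication.

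**Figure D1:**
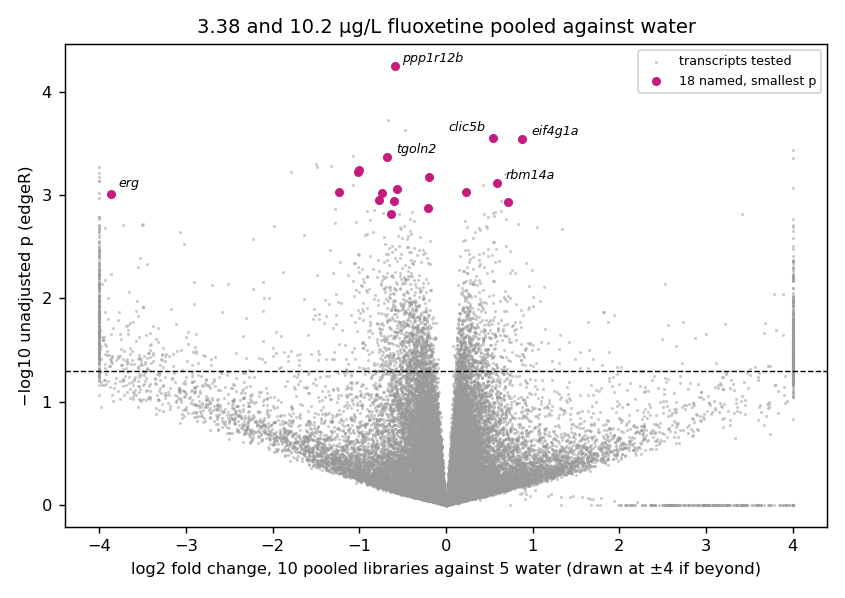
Each point is 1 of 43837 transcripts, with its log2 fold change in the 10 pooled libraries against 5 water libraries on the x axis and the −log10 of its unadjusted edgeR p on the y axis; the dashed line marks p of 0.05. The 18 transcripts named for their smallest p are coloured, and all have an adjusted p of 0.859.

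Each concentration alone gave the same count. At 3.38 µg/L edgeR called 0 transcripts (0%), with 1829 (4.17%; 1.71% higher and 2.47% lower) at an unadjusted p below 0.05 and a smallest adjusted p of 1. At 10.2 µg/L it called 0 (0%), with 2342 unadjusted (5.34%, with 2.61% higher and 2.74% lower) and a smallest adjusted p of 0.925. With 1 library left out, the unadjusted number at 10.2 µg/L ran from 1564 without water D to 4016 without 10.2 µg/L D. The comparisons at 3.38 and 10.2 µg/L share the water libraries. The 2 concentrations were also set directly against each other, which uses no water library, and edgeR called 0 (0%), with 1224 (2.79%; 1.42% higher and 1.37% lower) unadjusted and a smallest adjusted p of 1. DESeq2 called 87 at 3.38 µg/L, 107 at 10.2 µg/L and 93 between them.

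Of the 20 transcripts with a symbol, at least 1 CPM and the smallest p in the pooled comparison, 18 are reported here, 13 with lower and 5 with higher means than in water. None passed the adjusted test, so they are given as values. They were chosen by this same comparison, so their fold changes are a description and support nothing.

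Several of them encode proteins of the cytoskeleton and of muscle. The ppp1r12b transcript (XM_039689908.1), for a regulatory subunit of myosin phosphatase, measured 7.04, 6.36, 8.57, 9.67 and 7.87 CPM in water replicates A to E, and 4.46, 4.86 and 7.30 CPM as the lowest, median and highest of the pooled libraries. Of the pooled libraries, 9 lay below all water libraries and 3.38 µg/L D overlapped them. Its log2 fold change was -0.59 ± 0.12 (SE; unadjusted p = 5.61e-05, adjusted p = 0.859 by edgeR). The myh6 transcript (XM_039690063.1), for a heavy chain of cardiac myosin, measured between 8.12 and 11.1 CPM in water and 3.66, 5.099 and 11.1 CPM (lowest, median, highest) in the pooled libraries. All pooled libraries but 3.38 µg/L B were below the water range, and the log2 fold change was -0.78 ± 0.21 (SE). The specc1la transcript (XM_039679846.1), for a protein that links actin and microtubules, had little spread, with 32.5 to 36.7 CPM in water and 27.3 to 33.0 CPM in the pool. Its log2 fold change was -0.20 ± 0.05 (SE). The daam1a transcript (XM_039672549.1), for an actin-nucleating formin, had a log2 fold change of -0.52 ± 0.30 at 3.38 µg/L and -1.48 ± 0.30 at 10.2 µg/L (SE), and the difference between the concentrations was -0.97 ± 0.30 (SE; not called).

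Transcripts of trafficking and signalling made up another share. The tgoln2 transcript (XM_039674970.1), for a protein of the trans-Golgi network, measured 19.9 to 34.9 CPM in water and 13.1 to 24.0 CPM in the pool, with 7 pooled libraries below all of water and a log2 fold change of -0.68 ± 0.16 (SE). For the tbc1d1 transcript (XM_039691745.1), whose protein controls glucose transporter traffic in mammals, the log2 fold change was -0.73 ± 0.19 (SE), and for smad3a (XM_039688564.1), a mediator of TGF-beta signals, it was -0.21 ± 0.06 (SE). The bcam transcript (XM_039679737.1), for a cell adhesion receptor of laminin, had -0.64 ± 0.18 (SE). The erg transcript (XM_039670290.1), for a transcription factor of blood vessels, was at 0 in 7 of the 10 pooled libraries and between 1.16 and 4.16 CPM in water. A fitted fold change of such a low transcript depends on the prior count.

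The 5 with higher means were ntng1a, brinp1, clic5b, eif4g1a and rbm14a. The ntng1a transcript (XM_039681267.1), for the axon guidance protein netrin-G1, measured 4.23, 7.24, 6.88, 6.64 and 5.23 CPM in water replicates A to E and 7.28, 10.03 and 12.4 CPM as lowest, median and highest in the pool. All 10 pooled libraries were above all water libraries, though 10.2 µg/L D only just so. On the log2 scale the difference was 0.72 ± 0.19 (SE), with an edgeR adjusted p of 0.859. For brinp1 (XM_039662013.1), a gene of the nervous system, the log2 fold change was 0.23 ± 0.06 (SE). The clic5b transcript (XM_039690265.1), for a chloride intracellular channel protein, was between 8.51 and 10.9 CPM in water and between 11.8 and 19.7 CPM in the pool, without overlap.

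**Figure D2:**
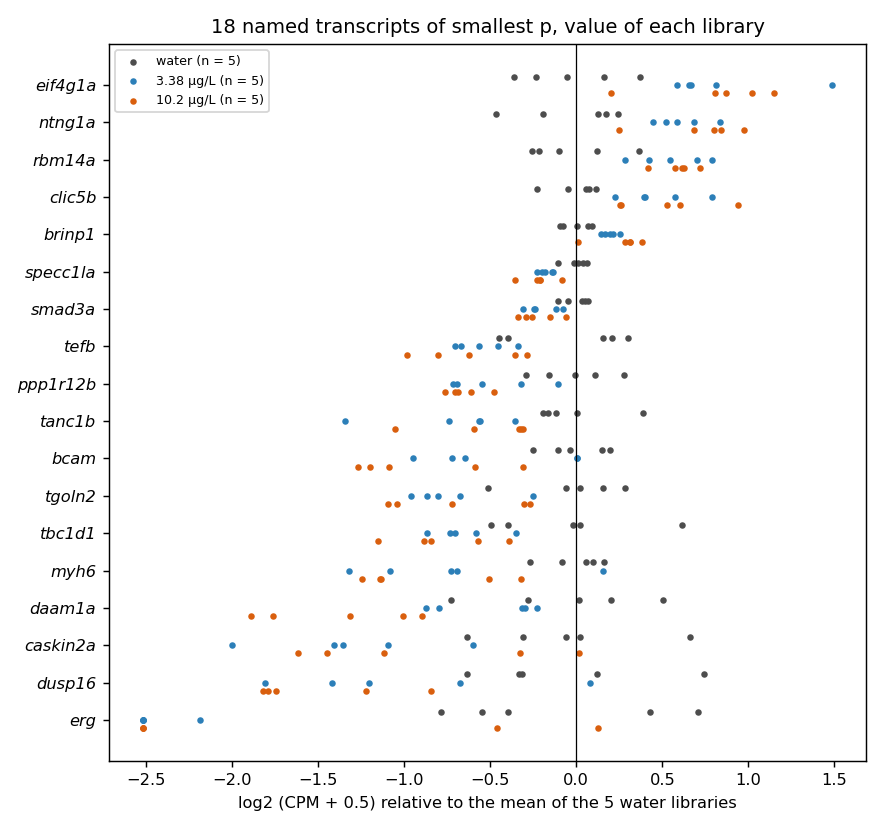
Each row is 1 of the 18 transcripts named for their smallest p, and each point 1 library, as log2 of CPM plus 0.5 relative to the mean of the 5 water libraries; grey is water, blue 3.38 µg/L and orange 10.2 µg/L. The means of the 2 concentrations lie on the same side of water for these transcripts, which their selection by the pooled p favours, and of these 18 only tanc1b, clic5b and ntng1a show no overlap between the 10 and the 5.

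For several of these transcripts the sum over the gene's paired transcripts did not carry the difference. Kallisto divides reads that fit several transcripts of a gene, and a sum over all of them does not depend on that division. The sums here hold only transcripts paired with a gene (55.1% of all, holding 82.6% of counts). Reads shared with an unpaired transcript can still move them. The sum for clic5b had a log2 fold change of 0.04 ± 0.07, for eif4g1a, a scaffold of translation initiation, -0.11 ± 0.08, and for daam1a 0.03 ± 0.07 (SE). The sums for rbm14a (0.03 ± 0.06), caskin2a (-0.14 ± 0.08), tanc1b (-0.15 ± 0.09), dusp16 (-0.20 ± 0.12) and bcam (-0.21 ± 0.11) were also smaller in size than the single transcripts. For ntng1a the sum over 5 transcripts had 0.35 ± 0.10 (SE), against 0.72 for the single transcript. The sum for ppp1r12b kept most of its size, at -0.45 ± 0.11 (SE). For genes with 1 tested transcript, such as tgoln2 and myh6, the sum adds little or nothing to that transcript. Their sums (-0.67 ± 0.16 and -0.77 ± 0.20, SE) are therefore no separate evidence. With sums per gene edgeR again called 0, and the smallest adjusted p was 0.64.

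Complete separation of the pooled libraries from water was rare. The 15 libraries can be split into 10 and 5 in 3003 ways, so chance alone separates some of so many transcripts. Whether more were separated than chance gives was not tested. Of the 43837 transcripts, 9 were higher in all 10 pooled libraries than in all 5 water libraries (0.0205%) and 22 were lower (0.0502%), 31 in all (0.0707%). Those with a symbol and at least 1 CPM numbered 15. Besides the named ones they held sst2 (XM_039660244.1), which encodes a somatostatin, at 3.00 to 4.43 CPM in water and 1.89 to 2.87 CPM in the pool, and anxa11a (XM_039672228.1), which encodes an annexin, at 25.8 to 33.5 CPM in water and 34.6 to 54.0 CPM in the pool. The log2 fold change was -0.49 ± 0.14 for sst2 and 0.43 ± 0.12 for anxa11a (SE; adjusted p = 0.859 for both by edgeR). Both were singled out after their values were seen. The gap between the groups was small in both, less than the range within water.

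Of 20 genes chosen by name, 19 had a tested transcript. They were chosen for the drug's known targets and for pathways of interest, with earlier results of these data known. The interval of the log2 fold change included 0 for 18 of the 19, and for 17 it lay within 2-fold of water.

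Genes of serotonin signalling did not pass the test. The slc6a4a transcript (XM_039662564.1), for the serotonin transporter itself, measured 8.96, 8.27, 9.85, 10.8 and 7.13 CPM in water replicates A to E. In the pool it measured 0.375 CPM at the lowest, 6.69 at the median and 8.14 at the highest, and 7 of the 10 lay below all water libraries. The lowest value belonged to 3.38 µg/L E, whose next lowest neighbour had 5.18 CPM. The log2 fold change was -0.58 with a 95% interval from -1.25 to 0.09 (unadjusted p = 0.0868, adjusted p = 0.921 by edgeR), an interval that still holds a fall of more than 2-fold. The paralog slc6a4b (XM_039658208.1) had 0.03 (interval -0.30 to 0.36), tph2 (XM_039692846.1), which makes serotonin in the brain, 0.11 (-0.26 to 0.49), and the receptor gene htr1aa (XM_039680621.1) 0.11 (-0.17 to 0.38). In TPM, which allows comparison between genes, slc6a4a averaged 4.97 in water and 3.28 in the pool, slc6a4b 2.04 in both, and tph2 2.15 and 2.26.

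In the stress axis, fkbp5 (XM_039689291.1), a glucocorticoid-induced cochaperone, varied more between pools than between groups. It measured 21.0, 74.1, 6.59, 24.5 and 15.1 CPM in water replicates A to E and 25.5, 37.6 and 98.1 CPM (lowest, median, highest) in the pool. The ranges overlapped, and the log2 fold change of 0.73 had an interval from -0.20 to 1.66. For biotransformation, cyp1a (XM_039680280.1), the enzyme induced through the aryl hydrocarbon receptor, had -0.18 (interval -0.40 to 0.05), and cyp3a65 (XM_039655328.1), a drug-metabolizing enzyme, -0.05 (-0.29 to 0.19).

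Genes of the lysosome lay close to water. The ctsla transcript (XM_039649953.1), for the protease cathepsin L, measured 440 to 558 CPM in water and 404 to 642 CPM in the pool, with a log2 fold change of -0.11 (interval -0.35 to 0.13). For lgmn (XM_039656403.1), the protease legumain, it was 0.01 (-0.20 to 0.22), and for lamp1a (XM_039646994.1), a lysosomal membrane protein, -0.13 (-0.38 to 0.11). Each of these 3 intervals excludes a difference of 1.5-fold upward.

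Among transporters, slc15a1a (XM_039690752.1), the intestinal peptide transporter, had the one interval of the 19 that left out 0. It measured 60.5, 70.9, 68.4, 78.7 and 70.6 CPM in water replicates A to E and 47.3, 58.4 and 72.4 CPM as lowest, median and highest in the pool. Of the pooled libraries, 6 lay below the water range and 4 within it. The log2 fold change was -0.25 with an interval from -0.48 to -0.03 (unadjusted p = 0.0288), and it did not pass the test over all transcripts (adjusted p = 0.859). At 3.38 µg/L it was -0.34 ± 0.13 and at 10.2 µg/L -0.16 ± 0.13 (SE). The carnitine and organic cation transporter slc22a16 (XM_039693461.1) was the most tightly bounded, at 0.05 (interval -0.06 to 0.15), with 59.9 ± 4.23 CPM (SD, n = 5) in water and 61.8 ± 2.99 CPM (SD, n = 10) in the pool.

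Of the remaining genes chosen by name, none passed the test. The neuronal calcium sensor hpca (XM_039681006.1) had a log2 fold change of 0.07 (interval -0.21 to 0.35), the calcineurin regulator rcan1a (XM_039687856.1) -0.06 (-0.28 to 0.16), the neuropeptide gene npvf (XM_039679001.1) -0.01 (-0.50 to 0.48) and ktn1 (XM_039666685.1), for kinectin, -0.01 (-0.37 to 0.35). The clock genes nr1d2a (XM_039688794.1) and per3 (XM_039674238.1) had -0.04 (-0.40 to 0.31) and -0.29 (-0.73 to 0.15). Of the clock output gene tefb, 1 transcript (XM_039687623.1) had -0.57 ± 0.15 (SE) and the most abundant one (XM_039687622.1) -0.03 ± 0.14, while the sum over its transcripts had -0.18 ± 0.12 (SE; not called).

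**Figure D3:**
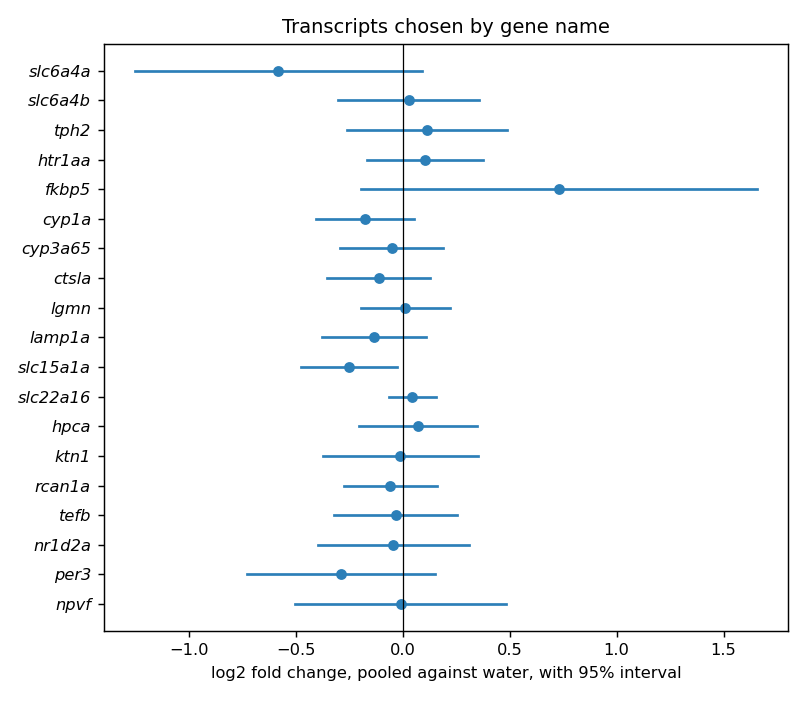
Each row is the transcript of 1 gene chosen by name, with the log2 fold change of the 10 pooled libraries against 5 water libraries as a point and its 95% interval as a line. The interval of slc15a1a alone leaves out 0, and those of slc6a4a and fkbp5 reach past a 2-fold difference.

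The gene lists gave 0 called members in either direction in any of the 32 lists, so they are described by their medians and by members at an unadjusted p below 0.05, of which the background was 2.47% higher and 3.28% lower. List members named here and below against water were taken from those with the smallest p of their list in this same comparison. Their values are a description, support nothing and do not represent the whole list. In the serotonin and monoamine list 0 of 40 transcripts reached that level and the median log2 fold change was 0.07. In the stress axis it was 0 of 25 with a median of 0.12, and in cholesterol biosynthesis 0 of 27 with a median of -0.03. In the lysosome and phospholipidosis list 1 of 74 was higher and 1 lower, the latter glb1l2, with a median of -0.01. In the biotransformation list 1 of 17 was higher, the glucuronosyltransferase ugt5a1, and 3 lower, abcb5, slco2b1 and ahr2, with a median of -0.15.

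The epidermis list lay furthest below water, with 0 of 46 transcripts higher and 13 lower at an unadjusted p below 0.05 and a median of -0.31. The adhesion gene epcam (XM_039653343.1) measured 347.6 ± 61.3 CPM (SD, n = 5) in water and 231.5 ± 81.0 CPM (SD, n = 10) in the pool, or -0.59 ± 0.19 on the log2 scale (SE), with an edgeR adjusted p of 0.859. The cornified-envelope gene evpla had -0.71 ± 0.25 and the tight-junction genes cldnb and cldni -0.42 ± 0.16 and -0.45 ± 0.17 (SE), none of them called. The summed TPM of the list was 5108 to 6829 in water and 4141 to 6523 in the pool, and 6 pooled libraries (3.38 µg/L A, C and E and 10.2 µg/L A, B and E) were below all of water. That count was not particular to epidermis. It was 8 for heat shock and unfolded proteins, 7 for biotransformation and transporters and 6 for ionocytes. The cartilage, bone and collagen list had 1 of 108 higher and 11 lower, with a median of -0.22. Its col10a1b and spp1, genes of mineralizing bone and cartilage, had -0.74 ± 0.25 and -0.39 ± 0.13 (SE; not called).

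Eye and neuron lists lay on the other side. Of 54 photoreceptor transcripts 10 were higher and 0 lower at an unadjusted p below 0.05, with a median of 0.18. The retinoschisin gene rs1a (XM_039673361.1) measured 30.4 ± 4.83 CPM (SD, n = 5) in water and 39.5 ± 7.39 CPM (SD, n = 10) in the pool, or 0.38 ± 0.13 on the log2 scale (SE), with an edgeR adjusted p of 0.859. The rod opsin gene rho had 0.26 ± 0.11 and the ultraviolet and blue cone opsin genes opn1sw1 and opn1sw2 0.29 ± 0.13 and 0.34 ± 0.15 (SE), none called. Summed photoreceptor TPM was 3994 to 4961 in water and 4241 to 6470 in the pool, and the 4 pooled libraries above all of water were 3.38 µg/L A and E and 10.2 µg/L A and B. By summed TPM, the neuron, skeletal muscle and cytosolic ribosome lists each had 5 pooled libraries above all of water. In the lens list 5 of 32 were higher and 0 lower, with a median of 0.25, and in the neuron list 12 of 137 were higher and 2 lower, with a median of 0.14.

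Whether fragment length moved with these lists was not tested beyond the following values. The 4 libraries high in photoreceptor transcripts were all among the 6 low in epidermis transcripts, and all but 3.38 µg/L E of those 4 had shorter fragments than any water library. Of the remaining short-fragment libraries, 10.2 µg/L D was in neither set and 10.2 µg/L E was low in epidermis transcripts, as was 3.38 µg/L C, whose fragments were not short (238.77 bp). With fragment length as a covariate, where 4.54% of all transcripts were at an unadjusted p below 0.05, the median was -0.28 for epidermis (11 lower), 0.12 for photoreceptors (4 higher), 0.23 for lens (2 higher) and -0.18 for cartilage, bone and collagen (8 lower). Without the 5 libraries of short fragments, the median was -0.20 for epidermis, 0.05 for photoreceptors, 0.11 for lens and -0.01 for cartilage, bone and collagen. That setting left 1 library, C, at 10.2 µg/L, which stands for the whole of that group. Its fragments (246.52 bp) were longer than in any water library (239.59 bp at most), so the setting did not match water in fragment length. The neuron list had a median of 0.11 with the covariate (8 of 137 higher and 3 lower) and of 0.04 without the 5 libraries.

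**Figure D4:**
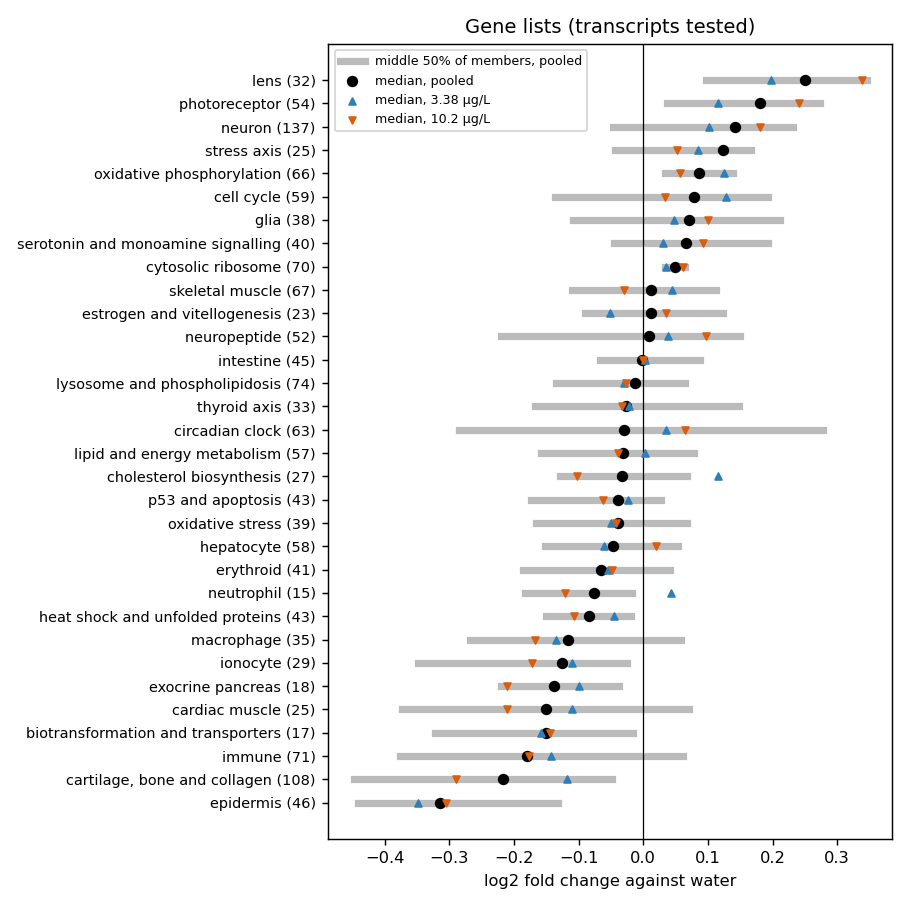
Each row is a gene list with the number of transcripts tested in parentheses; the black point is the median log2 fold change of the pooled libraries against water, the grey bar the middle 50% of members, and the blue and orange triangles the medians at 3.38 and 10.2 µg/L alone, which share the water libraries. Medians run from -0.31 for epidermis to 0.25 for lens, and no member of any list was called.

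The pooled libraries did differ from the other exposed groups. Against the mean of 0.19, 0.74 and 47.2 µg/L, a comparison that uses no water library, edgeR called 5978 of 43837 transcripts (13.6%). Of these, 2837 were higher (6.47%) and 3141 lower (7.17%) in the pool. The mean of 0.19, 0.74 and 47.2 µg/L against water gave 177 called by edgeR, and 5167 at an unadjusted p below 0.05. The 5978 calls do not show where water lay. The slc22a16 transcript measured 56.8, 62.6 and 66.7 CPM (lowest, median, highest) in the 10 pooled libraries, against 88.0, 98.8 and 118 CPM in the 11 other exposed libraries, and 53.2 to 64.5 CPM in water. The pooled and the other exposed libraries did not overlap, and the difference was -0.70 ± 0.04 on the log2 scale (SE), with an edgeR adjusted p of 2.75e-09. The hpca transcript gave the same picture. It measured 5.18 to 8.99 CPM in the pool, 11.8 to 16.0 CPM in the other exposed groups and 5.38 to 8.07 CPM in water. Its difference was -1.02 ± 0.11 (SE; edgeR adjusted p = 1.2e-05). The genes named here were chosen with earlier results of these data known, so their adjusted p-values are no independent test. Among lysosomal genes, ctsla was lower in the pool by a log2 fold change of -0.54 ± 0.09, lgmn by -0.45 ± 0.08 and lamp1a by -0.55 ± 0.10 (SE), all called. Of the 74 transcripts in the lysosome and phospholipidosis list, 23 were called lower and 4 higher (1 and 0 once fragment length was in the fit). The serotonin receptor gene htr1aa (0.36 ± 0.11) and npvf (0.69 ± 0.19) were higher in the pool and were called (SE). Of the lists, 27 of 46 epidermis and 53 of 108 cartilage, bone and collagen transcripts were called lower, and 31 of 54 photoreceptor transcripts were called higher. For these lists the range of summed TPM in water lay between the others, with overlap. Epidermis had 4141 to 6523 in the pool, 5108 to 6829 in water and 6199 to 8123 in the other exposed groups. Photoreceptors had 4241 to 6470, 3994 to 4961 and 3318 to 4448, and cartilage, bone and collagen 1760 to 3527, 2166 to 3727 and 2984 to 4847.

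Fragment length differed between these groups as well. All libraries at 0.19 and 0.74 µg/L had fragments of at least 248.25 bp, longer than in any of the 15 pooled and water libraries, and those at 47.2 µg/L had 228.1 to 247.2 bp. With fragment length as a covariate 18 of the 5978 calls were left, slc22a16 (-0.72, adjusted p = 2.56e-05) and hpca (-0.96, adjusted p = 0.0434) among them, and ctsla, lgmn, lamp1a, htr1aa and npvf were no longer called. Of these, npvf had 0.70 ± 0.32, beside 0.69 ± 0.19 without the covariate, and ctsla -0.44 ± 0.15, lamp1a -0.38 ± 0.15, lgmn -0.27 ± 0.12 and htr1aa 0.14 ± 0.15 (log2, SE). Called members of the epidermis, cartilage, bone and collagen, and photoreceptor lists became 0 in each, at medians of -0.33 (from -0.47), -0.46 (from -0.56) and 0.25 (from 0.39). A lost call does not show that the difference was absent. Without the 5 libraries of short fragments 135 transcripts were called, and 96 of these were among the 5978. The fit without those 5 libraries was filtered anew and tested 46315 transcripts, so its set is not the 43837 of the main fit. Against 47.2 µg/L alone, whose fragment lengths overlapped those of the pool, 1797 were called. Concentration and a preparation shared by some groups cannot be told apart from these labels.

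**Figure D5:**
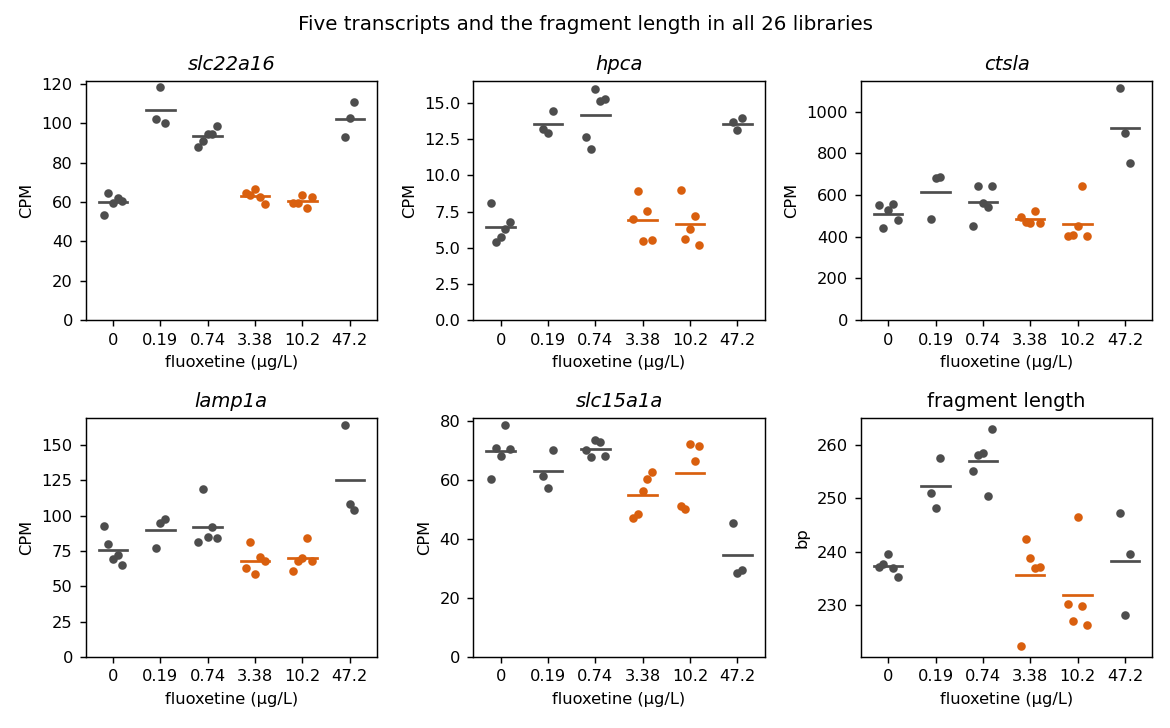
Each panel shows all 26 libraries by measured fluoxetine concentration, as CPM for 5 transcripts and as bp for fragment length (its axis does not start at 0); points are libraries, bars are group means, and the pooled groups are orange. For slc22a16 and hpca the pooled libraries lie at the level of water and below all libraries at 0.19, 0.74 and 47.2 µg/L.

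With all libraries in the fit, DESeq2 called transcripts against water and edgeR did not. DESeq2 called 75 transcripts in the pooled comparison, 38 higher and 37 lower, of which 56 had a log2 fold change above 5 in size and 59 a count of 0 in at least 1 library. Of the 33 with a symbol, 10 had a log2 fold change under 5, among them ppp1r12b, eif4g1a, clic5b, ano10b, tgoln2, daam1a, erg, brinp1 and rbm14a. By DESeq2 the adjusted p was 0.00126 for ppp1r12b, at a log2 fold change of -0.58, beside -0.59 by edgeR. Each of the authors' deposited tables holds 26962 transcripts, against 43837 tested here, so the counts do not cover the same set. The table for 3.38 µg/L lists 18 transcripts at an adjusted p below 0.05, 5 higher and 13 lower. That for 10.2 µg/L lists 24, 7 higher and 17 lower. Of these calls in the authors' deposited table, 10 of the 18 and 15 of the 24 had a log2 fold change above 5 in size. Among the rest, the authors' deposited table gives caskin2a -1.25 at 3.38 µg/L (adjusted p = 0.0396), and ppp1r12b -0.69 (adjusted p = 0.00487), daam1a -1.48 (adjusted p = 0.00306) and bcam -0.85 (adjusted p = 0.0442) at 10.2 µg/L. None of these was called here by edgeR at either concentration.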

How the data were processed

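RNA sequencing was done on 26 libraries of pooled whole larvae, and the comparisons here use mainly the 15 libraries of water, 3.38 and 10.2 µg/L. Per the labels' protocols, poly(A) RNA was enriched and a strand-keeping kit was used. Per the submitters' processing notes, Trimmomatic 0.38, kallisto and DESeq2 were used, the last 2 without versions. The index and genome build: not given in the sources used here. For each library the authors deposited estimated counts per RefSeq transcript from kallisto, TPM, and transcript and effective lengths. Per the file headers, the authors' comparison tables hold a mean of normalized counts (a signal), log2 fold changes, a test statistic (a score), and p-values.

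Estimated counts were rounded to whole numbers. The table held 57299 transcripts, and a RefSeq gene table paired 31554 of them (55.1%, holding 82.6% of counts) with a gene; transcripts were tested as deposited. edgeR 4.0.16 in R 4.3.3 was run with filterByExpr, TMM scaling and a robust quasi-likelihood fit over all 26 libraries in 6 groups. The pooled comparison is the mean of the 3.38 and 10.2 µg/L groups minus water. A transcript counted as called when its p, adjusted by Benjamini-Hochberg, was below 0.05 over the 43837 tested, two-sided, with no minimum fold. Fits that left out libraries were filtered anew, and the fit without the short-fragment libraries tested 46315 transcripts. SE and 95% intervals come from the quasi-likelihood F. DESeq2 1.42.0 was an alternative. Levels are CPM. The floor is 3 counts per library and covers counting error only.

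The pool, its 32 gene lists and the named genes were chosen with earlier results of these data known. The named transcripts were called ones that had a symbol and averaged 1 CPM or more, filled up to 20 by the smallest p, of which 2 are not reported here, plus 20 genes chosen by name, 19 of which were found, each by its most abundant transcript. Fragment length is the median difference between length and effective length over transcripts of at least 3000 bases. The labels describe separate sets of embryos for each replicate, and p-values measure the spread between these pools.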

Additional observations from a re-analysis of the deposited data

Results flagged for a closer look

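Single libraries stood apart from the others of their group in 8 of 117 groups of values examined, where chance gives about 1 in 20. Among transcripts these were ctsla in 10.2 µg/L D (642.5 CPM), cyp1a in 3.38 µg/L B (55.16 CPM), eif4g1a in 3.38 µg/L E (67.41 CPM) and erg in 3.38 µg/L B (0.1273 CPM, with the other 4 libraries at 0). The stress gene fkbp5 stood apart in water B (74.1 CPM) and in 3.38 µg/L A (98.08 CPM). Among fragment lengths these were 3.38 µg/L A (222.28 bp) and 10.2 µg/L C (246.52 bp).

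The pooled libraries differed from the mean of the other exposed groups in 24 of the 37 named transcripts, tested as a difference in the same edgeR fit. Over all transcripts tested, 5978 of 43837 (13.6%) were called. Of the 37, 18 were chosen by their p against water, which rests on the same pooled libraries. The others were named with earlier results known, so the share called among the 37 is no independent result. Lower in the pool, in log2 fold change, were slc22a16 (-0.7039), hpca (-1.021), ctsla (-0.538), lgmn (-0.4469), lamp1a (-0.5509), cyp1a (-0.3623), cyp3a65 (-0.3271) and 1 tefb transcript (-0.3765). Of the transcripts with the smallest p against water, ppp1r12b (-0.4992), tgoln2 (-0.7185), daam1a (-0.6889), caskin2a (-1.004), specc1la (-0.2152), dusp16 (-0.8157), tbc1d1 (-0.7976), erg (-3.941, a value that depends on the prior count), myh6 (-0.973), tanc1b (-0.699) and bcam (-0.8864) were also lower. Higher in the pool were clic5b (0.4075) and eif4g1a (0.8362), both of which turned to lower with sums per gene (-0.21, called, and -0.16, not called), and brinp1 (0.1544), htr1aa (0.3552) and npvf (0.6867). With fragment length as a covariate 2 of the 24, slc22a16 and hpca, were still called. Several of the others kept their size with a wider error, among them ppp1r12b (-0.49 ± 0.16), eif4g1a (1.09 ± 0.26), caskin2a (-1.15 ± 0.36), tanc1b (-0.69 ± 0.21), daam1a (-0.71 ± 0.33) and npvf (0.70 ± 0.32; log2, SE), while cyp1a (-0.08 ± 0.12) and htr1aa (0.14 ± 0.15) were smaller. These are single transcripts. Summed per gene, without the covariate, caskin2a had -0.06 ± 0.06 and was not called. By the same sums daam1a had -0.23 ± 0.06 and ppp1r12b -0.37 ± 0.09 (log2, SE), both called.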

How the results depend on the processing

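Against water, the pooled count was 0 in edgeR with relative log expression factors, no count filter, no robust option, sums per gene, fragment length as a covariate, and the 15 libraries fitted alone as 3 or as 2 groups. DESeq2 called 75 for the pool, 87 at 3.38 µg/L, 107 at 10.2 µg/L and 93 between the concentrations; the cause was not tested. Leaving out each of the 15 libraries gave 0 to 1 for the pool, 0 to 1 at 3.38 µg/L, 0 to 2 at 10.2 µg/L, 0 to 2 between them, and 4633 to 6708 against the other exposed groups. The single pooled calls came without 3.38 µg/L C, 10.2 µg/L A and 10.2 µg/L D (ano10b), each a different transcript with a fitted log2 fold change beyond -4. Without the 5 libraries of shorter fragments than any water library, a setting chosen after seeing the data that leaves 1 library at 10.2 µg/L and assumes it varies like the other groups, 18 were called for the pool, all lower, 26 at 10.2 µg/L, 21 between the concentrations and 135 against the other exposed groups.

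The count against the other exposed groups, 5978, became 18 with fragment length as a covariate, and 1509, 2041 and 1797 against 0.19, 0.74 and 47.2 µg/L alone; groups tested alone hold fewer libraries. With sums per gene, clic5b (-0.2149, called) and eif4g1a (-0.1646, not called) turned to lower in the pool. By the same sums caskin2a was no longer called, at -0.06 ± 0.06 (SE).

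With the replicate letter as a block the pooled count was 0, with 3454 at an unadjusted p below 0.05 and a smallest adjusted p of 0.281, and the count against the other exposed groups was 7413. Libraries of the same letter deviated together in 13 of 15 pairs (correlation over 0.1; range -0.02 to 0.38), and 13 of 15 libraries correlated best with their own letter, a hint from the data that the labels do not state.

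Of transcripts at 10 CPM or more, 75.6% had an interval within 1.5-fold, and no batch label was given.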
